A study of Canis lupus familiaris with 12 samples.

Results

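The genes described here are those of the proteasome and of the ubiquitin pathway families. They were chosen by symbol alone: the probe had to carry 1 gene symbol, and that symbol had to begin with PSMA, PSMB, PSMC, PSMD, PSME, PSMG, UBE2, UBE3 or FBXO, or with UBA, USP or CUL followed by a digit. This gave 137 probes for 94 genes, of 8047 probes with 1 symbol for 4325 genes. They comprise 7 PSMA, 8 PSMB, 3 PSMC, 9 PSMD, 1 PSME and 2 PSMG genes, 3 UBA, 12 UBE2 and 2 UBE3 genes, 24 USP genes, 7 cullins and 16 F-box genes. The symbol prefix set membership, and no measured value entered the choice. USP6NL carries the prefix but encodes a GTPase-activating protein, and UBE2DNL is the symbol of a UBE2D-like pseudogene, so neither is a deubiquitinase or a proven conjugating enzyme.

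The cells were MDCK, an epithelial line of dog kidney. Lines transfected with Snail, with Slug or with E47, 3 transcription factors known to repress the E-cadherin gene CDH1, were each hybridised on 2-colour arrays against MDCK-CMV control cells. For each transfectant the labels number samples 1 and 2, and a sample was run on 1 array titled Cy5 and 1 titled Cy3, so a transfectant has 4 of the 12 arrays. The transfectants and the control share the MDCK background, and every comparison uses the same control. The sources used here do not give the constructs, the time after transfection, whether a line is a clone or a pool, or whether the control RNA was 1 pool. They also do not say that samples 1 and 2 were separate cultures. The p-values therefore reflect no more than how far these samples differ, which may be technical, and variation among control cultures does not enter them.

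The proteasome is the protease that degrades ubiquitin-tagged proteins. Its barrel-shaped 20S core is built from PSMA (alpha) and PSMB (beta) subunits, and the 19S regulatory particle, built from PSMC ATPases and PSMD subunits, recognises and unfolds the substrates. Ubiquitin is attached by an activating enzyme (E1, the UBA genes), a conjugating enzyme (E2, UBE2) and a ligase (E3), among which cullins with F-box adaptors form a large class, and it is removed by deubiquitinases such as the USP enzymes. Snail and Slug are short-lived proteins that this pathway degrades.

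All values are log2 ratios of a transfectant to the control, with no pseudocount, and a value of 1 stands for a doubled signal. The direction is assumed, not read from the labels: these name the dye of each channel but not the numerator, and the signs did not follow the dyes, the Cy5 arrays of Snail samples 1 and 2 correlating at -0.584 as deposited. The 2 Snail 2 arrays, the 2 Slug 1 arrays and the E47 2 array titled Cy5 were multiplied by -1, so that arrays of a transfectant run one way and CDH1 lies below the control. Turning the sign of a whole transfectant would exchange higher and lower throughout its comparison with the control and leave the counts of calls as they are. Array values are given in the order sample 1 Cy5, sample 1 Cy3, sample 2 Cy5 and sample 2 Cy3. Errors are limma's standard errors (SE) on n = 2 samples, each the mean of its 2 arrays, and p-values are limma's, adjusted by Benjamini-Hochberg over all genes tested in that comparison. A gene with adjusted p under 0.05 is called, and only called genes are said to have risen or fallen.

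Of the 94 genes, 91 were tested in at least 1 of 6 comparisons and 72 had values on all 12 arrays. FBXO3 (8 arrays with a value), the assembly chaperone PSMG1 (2 arrays) and USP16 (7 arrays) were not tested. In all, 30 genes were called against the control in at least 1 transfectant. Over these genes the 2 samples of a transfectant correlated across genes at 0.636 for Snail (81 genes), 0.67 for Slug (87 genes) and 0.702 for E47 (82 genes), which is a description, since genes are not independent replicates. Over the whole array, 10654 to 12982 of 13056 probes had a value. The SD of an array's ratios was higher on the Slug arrays (0.640 to 0.695) than on the others (0.446 to 0.586). Among markers fixed for the cells, CDH1 (which set the sign) and DSP, a desmosome protein, fell in each transfectant. Of the epithelial markers, 3 of 6 fell in Snail, 3 of 7 in Slug and 3 of 6 in E47, and 2 of the 7 lay above 0 in Slug. Each count of 3 includes CDH1, whose side was set by the choice of sign and gives no support for the direction. Of the mesenchymal markers, 4 of 6 rose in Snail, 2 of 6 in Slug and 4 of 7 in E47, FN1 and COL1A2 in each, while THY1 fell in Snail (-0.82, adjusted p = 0.00911). Of 9 leukocyte markers none was called in Snail (8 tested) or in E47 (9 tested), and in Slug 1 rose and 2 fell of 8. Of 8 endothelial markers, 3 rose in Slug. Beside these marker counts, 5.07%, 9.62% and 1.49% of all genes fell in Snail, Slug and E47, and 2.15%, 12.2% and 3.81% rose.

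In Slug transfectants more of these genes were called, 25 of 87, than in Snail (7 of 81) or E47 (2 of 82). The background differed in the same order: 21.8% of 4053 genes were called in Slug, 7.22% of 3768 in Snail and 5.3% of 3966 in E47. The shares among the pathway genes were 28.7%, 8.6% and 2.4%. In Slug, 17 of the 87 fell (19.5%, against 9.62% of all genes) and 8 rose (9.2%, against 12.2%). In Snail all 7 called genes fell, with 5.07% of all genes falling and 2.15% rising. In E47, 1 rose and 1 fell, against 3.81% and 1.49% of all genes. The median log2 ratio over the genes tested was -0.14 in Snail, -0.08 in Slug and -0.06 in E47, where all genes had medians of -0.05, 0.03 and 0.01. No set test was run, so these counts describe the families and show nothing particular to them.

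**Figure D1:**
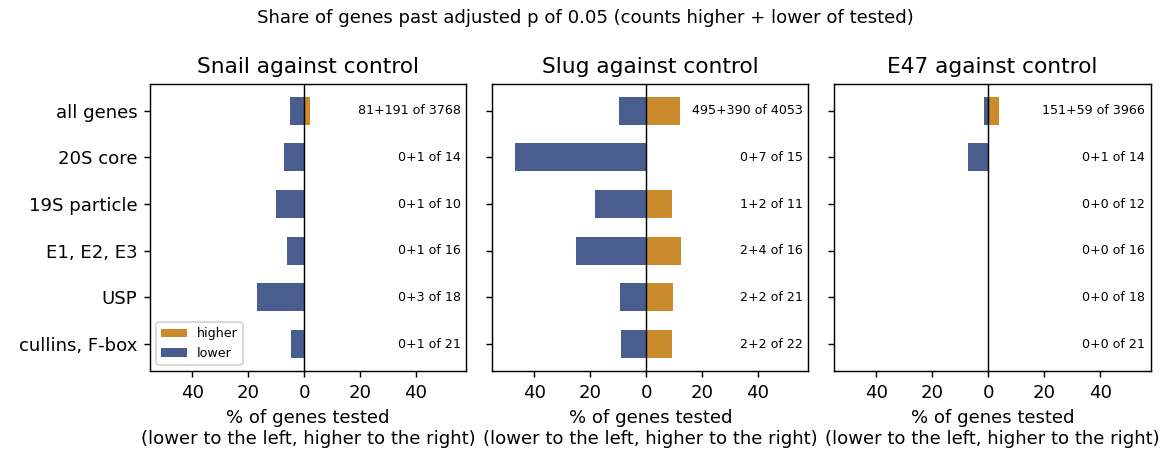
Share of genes tested that were called against the control (adjusted p under 0.05), in percent, for all genes and for 5 groups of pathway genes, with bars to the left for lower and to the right for higher. The longest bar is that of the 20S core in Slug, where 7 of 15 genes fell and none rose.

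The 20S core genes lay mostly below the control in Slug. Of 15 measured, 7 fell (46.7%, against 9.62% of all genes) and none rose (12.2% of all genes did). Of the 15, 12 lay below 0 (1920 of all 4053 genes did), with a median of -0.60. The alpha subunits PSMA2, PSMA1 and PSMA6 and the beta subunits PSMB7, PSMB8, PSMB3 and PSMB6 were the ones that fell, by 1.52- to 1.89-fold. The arrays read RNA of whole cultures, so fewer cells expressing a gene and less RNA per cell cannot be told apart.

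PSMA2 had Slug log2 ratios of -0.83, -1.23, -1.08 and -0.52, and fell by 0.92 ± 0.12 (SE, adjusted p = 0.00285). PSMA1 lay at -0.50, -1.44, -0.97 and -0.47, a fall of 0.85 ± 0.15 (SE, adjusted p = 0.00769). PSMA6 lay at -0.86, -0.75, -0.76 and -0.50, with a mean of -0.72 ± 0.15 (SE, adjusted p = 0.0152). All 3 encode subunits of the outer rings that gate the core, and all of their Slug arrays were below 0. The Snail arrays of PSMA2 lay between -0.33 and 0.00, above every Slug array. Its E47 arrays lay between -0.45 and 0.17, also above every Slug array.

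Among the beta subunits, PSMB5, PSMB6 and PSMB7 carry the chymotrypsin-like, caspase-like and trypsin-like sites. PSMB7 had Slug ratios of -1.02, -1.02, -0.88 and -0.33 and a mean of -0.81 ± 0.19 (SE, adjusted p = 0.0217). The Snail arrays of PSMB7 (0.16, 0.35, -0.21 and 0.74) were all above the Slug arrays, and its Snail mean of 0.26 was not called (adjusted p = 0.469). In E47 the samples of PSMB7 lay apart, at -0.07 and -0.83, and the mean of -0.45 was not called (adjusted p = 0.238). PSMB6 lay at -0.61, -0.91, -0.71 and -0.18 in Slug, a mean of -0.60 ± 0.16 (SE, adjusted p = 0.0322), with uncalled means of -0.50 in Snail and -0.08 in E47. PSMB3, a structural beta subunit, had 3 low Slug arrays (-0.79, -0.92 and -0.74) and 1 at 0.04, sample 2 in Cy5. Its mean was -0.60 ± 0.15 (SE, adjusted p = 0.0268), and its Snail arrays were all above 0.

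The calls of the core in Slug rested largely on sample 1. Of all genes, too, a smaller share was called without Slug sample 1 than in the full fit, as given further on. Without Slug sample 1, 1 of the 15 core genes was called (PSMA2), with a median of -0.35, and PSMB3 lay at -0.35. Without Slug sample 2 again 7 fell, 6 of them shared, with a median of -0.76. The count was 4 when arrays were scaled to 1 spread, where 488 of 4053 genes were called. It was 3 in the Cy3 arrays alone (9.2% of all genes) and 6 in the Cy5 arrays alone (13.4% of all genes). It was 8 in the array-level fit (30.1% of all genes) and 7 with a replicate block (22.3% of all genes). It was also 7 with a robust prior or spot medians (892 and 890 of 4053 genes).

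PSMB5 was the core subunit called in the other transfectants. Its Snail arrays lay at -1.52, -0.69, -1.39 and -1.73, and the mean of -1.33 ± 0.21 (SE, adjusted p = 0.00918) is a 2.52-fold fall, the only core call of 14 in Snail. In E47 the arrays lay at -0.72, -0.69, -1.65 and -1.19, a 2.09-fold fall (mean -1.06 ± 0.21 SE, adjusted p = 0.0265), again 1 of 14. All 8 of these arrays were below 0, and sample 2 was the lower one in both. In Slug 3 arrays agreed closely, at -0.85, -0.83 and -0.83, and the sample 2 array in Cy3 stood apart at 0.06, so the mean of -0.61 was not called (adjusted p = 0.0692). The pairwise differences of PSMB5 between transfectants were not called (adjusted p of 0.14 to 0.679). PSMB5 was not called in Snail without Snail sample 1 (-1.56, adjusted p = 0.0509) or without sample 2 (-1.10, adjusted p = 0.147), nor in E47 without E47 sample 2 (-0.70, adjusted p = 0.402).

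The immunoproteasome subunits replace the catalytic subunits in cells exposed to interferon. PSMB8, the replacement for PSMB5, had Slug ratios of -0.30, -1.22, -0.34 and -0.75 and fell by 0.65 ± 0.13 (SE, adjusted p = 0.0112). Its Snail arrays lay between -0.09 and 0.24 (mean 0.10, adjusted p = 0.711), above all of its Slug arrays, and its E47 arrays between -0.39 and -0.06 (mean -0.28, adjusted p = 0.266). PSMB10, which replaces PSMB7, had means of -0.12, 0.03 and -0.11 in Snail, Slug and E47, none called (adjusted p of 0.709 to 0.915). PSMB9, PSME1 and PSME2 were not analysed here. Of 23 antigen processing and interferon genes on the array, 2 fell in Snail (of 20 tested, with 5.07% of all genes falling). In Slug 2 of 23 rose (8.7%, against 12.2% of all genes) and 2 fell (8.7%, against 9.62%). Neither Slug share exceeded that of all genes. In E47 none of 23 was called (5.3% of all genes were), and 4 had an unadjusted p under 0.05. IFI35 (0.69, adjusted p = 0.00848) and IFI30 (0.41, adjusted p = 0.0427) rose in Slug. CD74 fell in Snail (-0.84, adjusted p = 0.0204) and in Slug (-0.655, adjusted p = 0.0244). ISG15, a ubiquitin-like protein induced by interferon, fell by 0.90 ± 0.20 (SE, adjusted p = 0.0351) in Snail and by 0.69 ± 0.20 (SE, adjusted p = 0.0416) in Slug. The part of these genes in the PSMB8 result was not tested.

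In E47 all 14 core genes tested lay below 0 (1929 of all 3966 genes did), with a median of -0.32. However, PSMB5 alone was called, and 5 had an unadjusted p under 0.05. The core gene not tested there, PSMA7, had 3 arrays with a value, all above 0 (0.15, 0.27 and 0.47). Without E47 sample 2 the core median was -0.21. PSMA3 was the lowest alpha subunit there, at -0.59, and PSMA2 the highest, at -0.15. In Snail the core median was -0.15 (-0.09 without Snail sample 1 and -0.30 without sample 2), with PSMA5 (-0.41) and PSMA4 (0.07) at the ends of the alpha family. In Slug PSMA7 (0.31) and PSMB4 (0.08) were the highest members of their families.

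**Figure D2:**
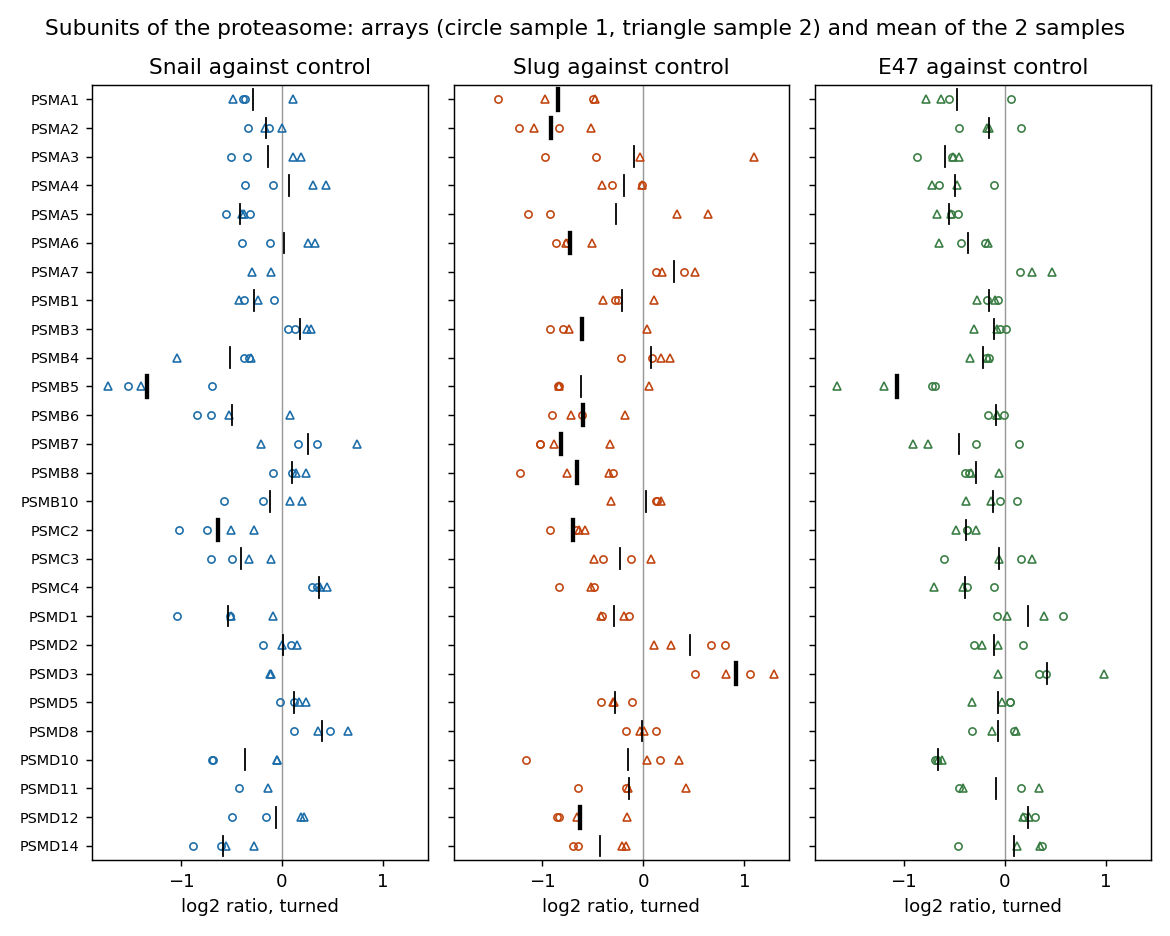
Log2 ratio to the control, turned to the assumed direction, of the 27 PSMA, PSMB, PSMC and PSMD genes on the arrays of each transfectant. Circles are arrays of sample 1, triangles arrays of sample 2, and the vertical bar is the mean of the 2 samples, thick where called. In Slug the PSMA and PSMB bars lie mostly left of 0 and PSMD3 lies to the right, while PSMB5 is the lowest subunit in Snail and E47.

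In the 19S particle the members called moved to both sides. PSMC2, an ATPase of the ring that unfolds substrates, fell in Snail (-1.01, -0.74, -0.27 and -0.51, mean -0.63 ± 0.15 SE, adjusted p = 0.0414) and in Slug (-0.92, -0.66, -0.64 and -0.58, mean -0.70 ± 0.15 SE, adjusted p = 0.0143). Its 8 arrays in these transfectants were all below 0, and its E47 mean of -0.38 was not called (adjusted p = 0.194). PSMD12, a lid subunit, had Slug ratios of -0.83, -0.85, -0.16 and -0.65 and fell by 0.62 ± 0.17 (SE, adjusted p = 0.0332). PSMD3, also of the lid, lay on the opposite side, at 0.52, 1.06, 1.29 and 0.82 in Slug. It rose by 0.92 ± 0.13 (SE, adjusted p = 0.00508), or 1.89-fold. That was the only rise of 11 PSMC and PSMD genes tested in Slug (9.1%, against 12.2% of all genes). In E47 PSMD3 had a mean of 0.42 (adjusted p = 0.137), and in Snail only the sample 2 arrays had a value, -0.11 and -0.12.

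The other PSMC and PSMD genes, grouped by symbol, were not called in any of the comparisons with the control. PSMD14, the deubiquitinase of the lid, had means of -0.58 in Snail (adjusted p = 0.0711), -0.43 in Slug (adjusted p = 0.0938) and 0.09 in E47. PSMD10, an assembly chaperone also called gankyrin, was the lowest PSMD gene in E47, at -0.66 (adjusted p = 0.112). PSMC4 was the highest PSMC gene in Snail, at 0.37, and the lowest in E47, at -0.40. PSMD8 was the highest PSMD gene in Snail, at 0.40 (adjusted p = 0.0866). Of 12 tested in E47 none was called (5.3% of all genes were), and 4 had an unadjusted p under 0.05. Without Snail sample 1 the PSMC2 mean in Snail was -0.39 and not called, as it also was not without Snail sample 2 (-0.88) or either E47 sample. Without Slug sample 1, PSMC2 (-0.60) and PSMD12 (-0.41) were not called in Slug, while PSMD3 was called with each sample left out.

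PSME3, the gamma activator that caps the core in the nucleus and opens it without ubiquitin, lay above the control in Slug and E47. In Slug its arrays lay at 1.72, 1.19, 1.24 and 1.59, a rise of 1.43 ± 0.13 (SE, adjusted p = 0.000808) or 2.70-fold. In E47 they lay at 0.95, 0.42, 0.82 and 0.60, a rise of 0.70 ± 0.13 (SE, adjusted p = 0.0257) or 1.62-fold. In Snail they lay at -0.38, -0.64, -0.04 and -0.18, with a mean of -0.31 that was not called (adjusted p = 0.207). The groups did not overlap: every Slug array was above every E47 array, and every E47 array above every Snail array. The Snail minus Slug difference was -1.74 (adjusted p = 0.00466) and the Snail minus E47 difference -1.01 (adjusted p = 0.0396), while the Slug minus E47 difference of 0.73 was not called. The E47 call was lost without E47 sample 1 (0.71) or sample 2 (0.69), whereas the Slug call was kept with each of the 6 samples left out.

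The assembly chaperone PSMG2 had a low mean in Snail, -1.36, with 4 arrays between -1.51 and -1.08, but was not called (adjusted p = 0.13). Its Slug samples lay far apart, at -0.92 and 1.40, which gave an SD of 1.64 around a mean of 0.24 (n = 2). In E47 its 3 arrays with a value lay between -1.14 and -0.66, and it was not tested there.

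Among the activating enzymes, UBA3, the catalytic subunit of the E1 for the ubiquitin-like protein NEDD8, fell in Slug. Its arrays lay at -1.03, -1.01, -0.16 and -1.01, with sample 2 in Cy5 standing apart, and the mean was -0.80 ± 0.15 (SE, adjusted p = 0.01). In E47 UBA3 had a mean of -0.53 (adjusted p = 0.0936), the lowest of its family. UBA1, the main E1 for ubiquitin, had means of 0.20, 0.42 and -0.12 in Snail, Slug and E47, and UBA7, the E1 for ISG15, had -0.19, 0.16 and 0.10; none was called.

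The conjugating enzymes moved to both sides in Slug, where 2 of 12 rose and 3 fell. UBE2Z, an E2 charged by the second ubiquitin E1, had 3 high arrays (1.51, 1.32 and 1.48) and 1 at 0.19, sample 2 in Cy3, which stood apart. Its mean of 1.13 ± 0.20 (SE, adjusted p = 0.00727) is a 2.18-fold rise. UBE2G2, which serves degradation of proteins from the endoplasmic reticulum, rose by 0.53 ± 0.13 (SE, adjusted p = 0.0272), with arrays at 1.00, 0.24, 0.21 and 0.68. UBE2B, a RAD6 enzyme of DNA damage tolerance, lay at -0.66, -0.80, -0.50 and -0.48 and fell by 0.61 ± 0.12 (SE, adjusted p = 0.0123). Its near copy UBE2A, whose probe may share signal with it, had Slug arrays between 0.20 and 0.70, none overlapping those of UBE2B, and a mean of 0.45 that was not called (adjusted p = 0.0544). UBE2L6, the E2 for ISG15, lay at -0.74, -0.42, -0.37 and -0.82, a mean of -0.59 ± 0.12 (SE, adjusted p = 0.0128). UBE2DNL was called as well, at -0.71 ± 0.16 (SE, adjusted p = 0.0185), although its sample 2 array in Cy3 lay above 0, at 0.24.

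In Snail the called conjugating enzyme was UBE2G1, the relative of UBE2G2, at 1 of 11 (9.1%, with 5.07% of all genes falling). Its Snail arrays were -0.72, -1.06, -0.76 and -0.89, and it fell by 0.85 ± 0.12 (SE, adjusted p = 0.00609). Its E47 arrays lay between 0.26 and 0.43 (mean 0.33, adjusted p = 0.157), and its Slug samples had a mean of 0.34 (adjusted p = 0.0772) over arrays at 0.80, -0.03, -0.09 and 0.68. All Snail arrays were below all others. UBE2C, the E2 of the anaphase-promoting complex, lay at -0.80, -0.09, -0.89 and -1.04 in Snail, with a mean of -0.70 that was not called (adjusted p = 0.0512). Of 16 E1, E2 and E3 genes tested in E47 none was called (5.3% of all genes were), and 6 had an unadjusted p under 0.05. UBE2DNL was the lowest there (-0.56) and UBE2Z the highest (0.49). The ligases UBE3A and UBE3D had means between 0.00 and 0.27 where tested and were not called.

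**Figure D3:**
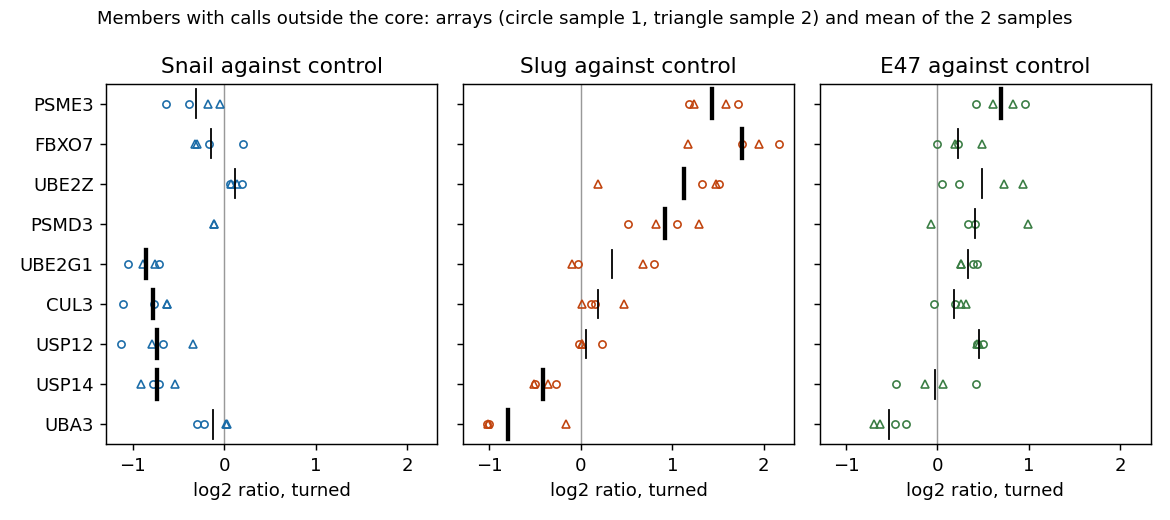
Log2 ratio to the control, turned to the assumed direction, of 9 called genes outside the 20S core on the arrays of each transfectant; symbols as circles for sample 1 and triangles for sample 2, with the mean as a bar, thick where called. PSME3 and FBXO7 lie right of 0 in Slug, and UBE2G1, CUL3 and USP12 have means below 0 in Snail and above 0 in Slug and E47.

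Cullins are the scaffolds of the largest class of ligases. CUL3, which works with BTB-domain adaptors, lay at -0.77, -1.11, -0.63 and -0.63 in Snail and fell by 0.78 ± 0.13 (SE, adjusted p = 0.0124). Its Slug arrays (0.02 to 0.48) and E47 arrays (-0.04 to 0.32) were all above these, with means of 0.19 and 0.18. CUL4B, a scaffold that uses DDB1, fell in Slug, at -0.62, -0.56, -0.51 and -0.57 (mean -0.56 ± 0.13 SE, adjusted p = 0.0211). Its near copy CUL4A, which may also share signal, had Slug arrays between 0.22 and 0.53 and a mean of 0.31 (adjusted p = 0.105). That mean averages 2 clones, at 0.55 and 0.07, the second lying at -0.12 on sample 1 in Cy3. The gene values of the 2 paralogues lay on opposite sides without overlap, but 1 CUL4A clone lay near 0. CUL5, which pairs with SOCS-box adaptors, lay at -0.77, -0.53, -0.40 and -0.32 in Slug and fell by 0.50 ± 0.14 (SE, adjusted p = 0.0378), and its 3 clones agreed in side there, at -0.55, -0.51 and -0.46. CUL7 was the highest cullin in Slug, at 0.53 (adjusted p = 0.0662), CUL2 in Snail, at 0.18, and CUL4A in E47, at 0.38; none of these was called.

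FBXO7, an F-box adaptor also known to bind the proteasome regulator PSMF1, had the largest change of all pathway genes against the control. Its Slug arrays were 1.76, 2.16, 1.95 and 1.17, a rise of 1.76 ± 0.15 (SE, adjusted p = 0.000808) or 3.39-fold. The Snail arrays lay between -0.32 and 0.21 (mean -0.14, adjusted p = 0.635) and the E47 arrays between 0.00 and 0.48 (mean 0.23, adjusted p = 0.488), all below the lowest Slug array. FBXO24 rose in Slug, at 0.72, 0.38, 0.22 and 0.83 (mean 0.53 ± 0.15 SE, adjusted p = 0.0416). Of the 16 F-box genes, 2 of 15 tested rose in Slug (13.3%, near the 12.2% of all genes) and none fell (9.62% of all genes did). None of 14 was called in Snail or in E47 (7.22% and 5.3% of all genes were), with 1 at unadjusted p under 0.05 in each. FBXO11, an adaptor known to target Snail for degradation, had means of -0.15, 0.24 and 0.12 in Snail, Slug and E47, none called (adjusted p of 0.396 to 0.795). FBXO42 (-0.41) and FBXO41 (0.28) were the ends of the family in Snail, FBXO25 (-0.48) the lowest in Slug, and FBXO4 (-0.48, adjusted p = 0.0594) the lowest in E47.

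Of the USP genes, 3 of 18 fell in Snail (16.7%, against 5.07% of all genes). In Slug 2 of 21 rose (9.5%, against 12.2% of all genes) and 2 fell (9.5%, against 9.62%). Neither Slug share exceeded that of all genes. In E47 none of 18 was called (5.3% of all genes were), and 3 had an unadjusted p under 0.05. USP14, a deubiquitinase that sits on the proteasome, had Snail arrays at -0.71, -0.78, -0.53 and -0.91 and fell by 0.73 ± 0.11 (SE, adjusted p = 0.00918). In Slug it lay at -0.50, -0.27, -0.51 and -0.36 and fell by 0.41 ± 0.11 (SE, adjusted p = 0.0373). In E47 its arrays scattered from -0.45 to 0.43, with a mean of -0.02. USP12, which acts with a WD-repeat partner, fell in Snail, at -1.12, -0.67, -0.34 and -0.79 (mean -0.73 ± 0.13 SE, adjusted p = 0.0145), while its E47 arrays lay between 0.43 and 0.50 and its Slug arrays between -0.02 and 0.23. USP39, a spliceosome protein without deubiquitinase activity, lay at -0.61, -0.30, -0.80 and -0.49 in Snail, a mean of -0.55 ± 0.12 (SE, adjusted p = 0.0346).

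In Slug, USP25 lay at -0.52, -0.57, -0.83 and -1.21 and fell by 0.78 ± 0.16 (SE, adjusted p = 0.0233). USP5, which recycles free ubiquitin chains, rose there, at 0.81, 0.41, 0.66 and 0.45 (mean 0.58 ± 0.12 SE, adjusted p = 0.0182). USP7, the deubiquitinase of MDM2, lay at 0.62, 0.48, 0.67 and 0.53 (mean 0.58 ± 0.14 SE, adjusted p = 0.0238). USP22, of the SAGA complex, had the highest mean of the family in Slug, at 0.71, with samples at 1.20 and 0.21, and was not called (adjusted p = 0.054). It was also the highest in E47, at 0.52, where USP15 was the lowest, at -0.35. USP45 was the highest in Snail, at 0.76, with samples at 1.23 and 0.29, and was not called (adjusted p = 0.116). The 3 clones of USP24 disagreed in Slug, with means of 1.04, 0.28 and -0.66, so its gene value of 0.15 stands for none of them. Clones also lay on opposite sides for CUL4A in Snail (-0.45 and 0.12), CUL5 in Snail (0.20, -0.46 and -0.27) and in E47 (-0.13, -0.34 and 0.09), FBXO32 in Snail (0.06 and -0.26) and FBXO34 in Slug (-0.07 and 0.32) and E47 (-0.02 and 0.37).

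**Figure D4:**
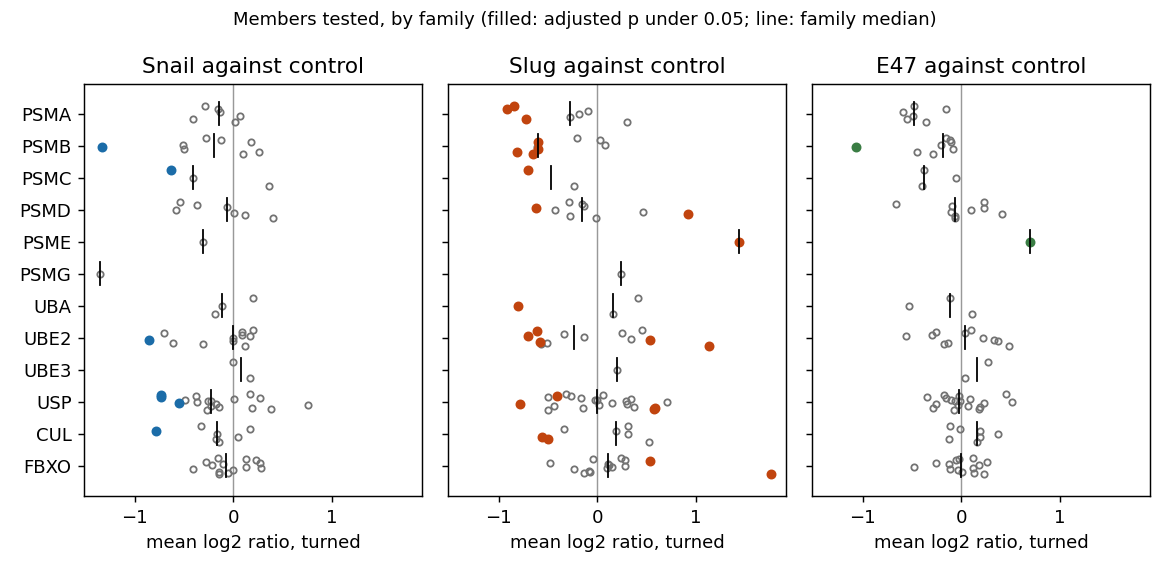
Mean log2 ratio to the control, turned to the assumed direction, of each gene tested, by family and transfectant; filled points were called, open points were not, and the black line is the family median. The Slug panel has most of the filled points, with 7 in PSMA and PSMB left of 0, and the E47 panel has 2, PSMB5 and PSME3.

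Many calls, in the core and outside it, were lost when 1 sample was left out. Leaving out a transfectant's own sample leaves 1 in its group, so a call can be lost while the mean hardly moves. In Snail USP14 lay at -0.72 without sample 1 and -0.74 without sample 2. PSMC2 moved more, to -0.39 and -0.88. A lost call therefore does not show that the sample left out carried it. None of the 7 Snail calls was kept without Snail sample 1, when 0 of 87 were called (2.7% of all genes), and none of 86 without Snail sample 2 (0.8% of all genes); USP39 was also lost without either E47 sample, which left 5 calls. Without either Slug sample, 11 genes were called in Snail and 4 in E47, while E47 had 1 without its own sample 1 and 0 without sample 2. In Slug 7 genes were called without sample 1, and 5 of the 25 were among them (FBXO7, PSME3, PSMD3, PSMA2 and USP25). That is 7.9% of the 89 tested, against 8.0% of 4216 genes in the same fit. Without Slug sample 2, 21 of 90 were called (23.3%, against 14.6% of 4126 genes), and CUL4B, CUL5, FBXO24, PSMB6, UBE2G2, UBE2L6, USP14, USP25, USP5 and USP7 were lost. CUL5, FBXO24 and USP14 were also lost without either E47 sample. UBE2DNL lay at -0.41 without Slug sample 1. FBXO7, PSME3, PSMD3 and PSMA2 kept their Slug calls with each of the 6 samples left out.

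Snail and Slug were compared through the same control, and 13 of 77 genes were called (16.9%, against 13.2% of 3675 genes). Relative to Slug, 7 were lower in Snail (9.14% of all genes were) and 6 were higher (4.08% of all genes). FBXO7 (Snail minus Slug -1.90, adjusted p = 0.00501), PSME3 and UBE2G1 (-1.19, adjusted p = 0.00784) were lower in Snail and were called with each of the 6 samples left out. CUL3 (-0.97, adjusted p = 0.0189), UBE2C (-0.95, adjusted p = 0.0427), FBXO24 (-0.81, adjusted p = 0.0472) and USP12 (-0.79, adjusted p = 0.0306) were also lower. The 6 that were higher in Snail were the core subunits PSMB7 (1.07, adjusted p = 0.0395), PSMB3 (0.79, adjusted p = 0.0498), PSMA2 (0.76, adjusted p = 0.0305) and PSMB8 (0.75, adjusted p = 0.0344), with UBE2DNL (0.87, adjusted p = 0.0412) and UBE2B (0.70, adjusted p = 0.0359). All of these 6 had fallen in Slug and were not called in Snail. Without either Snail sample 4 genes were called, without Slug sample 1 or either E47 sample 6, and without Slug sample 2 12. PSMB8 and USP12 were lost with each sample left out. FBXO24 lay at -0.52 without Snail sample 2, and UBE2DNL at 0.58 without Slug sample 1.

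These differences depend on the relative sign of the 2 transfectants, which was set by CDH1. As deposited, without these genes and CDH1, same-dye arrays of Snail 1 and Slug 2, all unturned, correlated at 0.157 (Cy5) and 0.11 (Cy3). Those of Snail 2 and Slug 1, all turned, correlated at 0.172 and 0.220. Same-dye pairs of a turned and an unturned array correlated at -0.250 to -0.097. With the sign of 1 transfectant turned, 17 of 77 genes were called (18.3% of all genes). FBXO7, PSMA2, PSME3 and USP12 were called with either sign, though not in a fixed direction. With Slug turned, the Snail minus Slug differences of FBXO7 (1.62), PSME3 (1.12) and PSMA2 (-1.07) changed side and that of USP12 (-0.67) did not. Turning Snail in place of Slug negates these values, so that USP12 would change side and the other 3 would not.

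Between Snail and E47, 4 of 75 genes were called (5.3%, against 2.57% of 3617 genes), and all 4 were lower in Snail (2.41% of all genes were lower and 0.166% higher). They were UBE2G1 (Snail minus E47 -1.19, adjusted p = 0.0205), USP12 (-1.19, adjusted p = 0.0245), PSME3 and CUL3 (-0.97, adjusted p = 0.0444). No array of Snail overlapped those of E47 for any of the 4. Here and above, separate arrays of a called gene add no support, since the same arrays gave the call. All 4 calls were lost without any 1 of the Snail or E47 samples. With 1 sign turned 4 other genes were called and none of these 4 (9.87% of all genes): PSMB5, PSMC2, USP14 and USP39.

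Between Slug and E47, FBXO7 alone was called of 79 genes (1.3%, against 0.786% of 3816 genes, 0.262% higher and 0.524% lower). Its Slug minus E47 difference was 1.54 (adjusted p = 0.0312), and it was kept only when Slug sample 2 was left out (1.74). Without any other of the 6 samples it was lost, at values from 1.33 to 1.65. With 1 sign turned 25 of 79 were called (25.8% of all genes), FBXO7 among them. The 20S core genes that fell in Slug were therefore not called as different from E47 in the assumed direction: PSMA2 had means of -0.92 and -0.15, PSMB7 of -0.81 and -0.45, and PSMA1 of -0.85 and -0.48.

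Other genes of the ubiquitin pathway, 47 outside the symbol families, gave the context. In Snail 2 of 44 fell (4.5%, against 5.07% of all genes). They were UFD1 (-0.65, adjusted p = 0.0145), a cofactor that extracts ubiquitinated proteins, and the shuttle UBQLN1 (-0.56, adjusted p = 0.046). In Slug 5 of 47 rose (10.6%, against 12.2% of all genes) and 3 fell (6.4%, against 9.62%), so neither share exceeded that of all genes. The ligase HUWE1 rose by 1.30 ± 0.13 (SE, adjusted p = 0.00102), the conjugating enzyme CDC34 by 0.73 ± 0.12 (SE, adjusted p = 0.00551) and elongin B, ELOB, by 0.69 ± 0.12 (SE, adjusted p = 0.00803). BRCA1 and UCHL1 also rose, and CDC23, ATXN3 and CBLB fell. In E47 none of 44 was called (5.3% of all genes were). HUWE1 was also higher in Slug than in E47, by 1.09 (adjusted p = 0.0473).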

How the data were processed

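The deposited table gives a log2 ratio of the 2 channels for each probe on 12 arrays; the authors' scanner, background correction, normalisation and rule for empty cells were looked for and not given in the sources used here. Array antilogs lay on whole thousandths, which settled the log base. The table holds no signal over background, and precision is limited by the number of arrays. Gene symbols came from the platform annotation, which lists human genes; of 94 symbols, 91 are in a RefSeq gene table of the dog (names only). Near copies such as UBE2A and UBE2B may share signal. Arrays were turned as stated in the report. The leading eigenvector, computed within each transfectant without these genes and CDH1, gave the same signs on 12 of 12 arrays. Its sign over a whole transfectant was first matched to the stated one. It therefore checks only the relative signs of arrays within a transfectant, not the assumed direction. Spots of a clone were averaged, then clones of a gene, then the 2 arrays of a sample, both needed. limma 3.58.1 in R 4.3.3 fitted the 3 transfectants together without a replicate term, over 4216 genes (moderated variances with a prior SD of 0.203 on 4.85 degrees of freedom), and was tested on simulated data. Genes named are those called and on the same side of 0 on all arrays, the catalytic and immunoproteasome subunits, the extremes of each family, those called between transfectants and those with clones on opposite sides; UBE2A, UBE2C, CUL4A, FBXO11, PSMD14, PSMG2 and UBA genes were added with their values known. Alternatives used 1 dye, 1 of 2 arrays, scaled arrays, spot medians, complete genes, an array-level fit, a replicate block, a robust prior and each sample left out; turning 1 sign was added after seeing the data. The genes and lists were chosen with earlier results of these data known.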

Additional observations from a re-analysis of the deposited data

Results flagged for a closer look

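Differences between transfectants past the threshold, as log2 ratios through the shared control, were found for 13 genes between Snail and Slug: CUL3 (-0.97), FBXO24 (-0.81), FBXO7 (-1.90), PSMA2 (0.76), PSMB3 (0.79), PSMB7 (1.07), PSMB8 (0.75), PSME3 (-1.74), UBE2B (0.70), UBE2C (-0.95), UBE2DNL (0.87), UBE2G1 (-1.19) and USP12 (-0.79), all as Snail minus Slug. Between Snail and E47 they were CUL3 (-0.97), PSME3 (-1.01), UBE2G1 (-1.19) and USP12 (-1.19), as Snail minus E47. Between Slug and E47 the difference was that of FBXO7 (1.54).

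Of 44 sets of 4 arrays looked at, 4 had an array that stood apart from the other 3 by Dixon's ratio, where chance gives about 1 in 20. All 4 were arrays of Slug sample 2. In Cy5 they were PSMB10 at -0.32 (ratio 0.887) and UBA3 at -0.16 (ratio 0.972). In Cy3 they were PSMB5 at 0.055 (ratio 0.98) and UBE2Z at 0.19 (ratio 0.857).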

How the results depend on the processing

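No called direction was reversed under the alternatives below; turning the sign of 1 transfectant, which does reverse some, is given in the report. In all, 697 values were labelled the same, 223 lost the call, 5 gained it and 7 moved. These are values of named genes and of the median over the PSMA, PSMB, PSMC and PSMD genes. For a gene, the same means that direction and side of the threshold were kept. For the median, which has no threshold, it means a shift under the SD of its 2 sample medians. Genes called in Snail, Slug, E47, Snail against Slug, Snail against E47 and Slug against E47 numbered 7, 25, 2, 13, 4 and 1. With Cy3 arrays alone they were 0, 7, 0, 1, 0 and 0. With Cy5 arrays alone 15 were called in Slug, 6 in Snail against Slug and 0 in Snail against E47. Scaling arrays to 1 spread gave 14 in Slug, 6 in E47 (1 higher, 5 lower), 7 in Snail against Slug (2 higher, 5 lower) and 0 in Slug against E47, and in Snail against E47 2 higher and 4 lower. The array-level fit, which treats arrays of a sample as near independent (correlation 0.005), gave 19, 39, 8, 28, 11 and 5. With each sample left out, the lone sample being assumed to vary like the other groups, the ranges were 0 to 11, 7 to 27, 0 to 4, 4 to 12, 0 to 4 and 0 to 1. With a replicate block the counts were 10, 28, 2, 14, 4 and 1. Deviations of same-numbered samples correlated at 0.024 (Snail and Slug), 0.226 (Snail and E47) and -0.056 (Slug and E47). The labels do not say what the number stands for, and whether same-numbered samples share a batch was not tested. Of all genes, Cy3 arrays alone gave 1.4%, 9.2%, 1.0%, 2.3%, 0.0% and 0.1%, and the array-level fit 15.5%, 30.1%, 11.4%, 22.7%, 10.6% and 5.1%. The cause of these differences was not tested.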
